A study of Mus musculus with 9 samples.

Results

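The transcripts described here are those of the mitochondrial genome, chosen as every gene row whose symbol begins with mt-. They were 37 of the 54532 rows counted in each library: 13 mRNA genes, 2 rRNA genes and 22 tRNA genes. They were measured by bulk RNA-seq in tumours of B16-F10, a mouse melanoma cell line, grown under the skin of C57BL/6 mice and taken on day 16. Before injection the cells had been given a control shRNA or an shRNA against Fbxo38, an F-box gene of the SCF ubiquitin ligases, in 2 versions called hairpin 1 and hairpin 2 here. Each of the 3 groups has 3 libraries. The genotype labels call the controls WT, and no drug or other treatment was given. The labels do not say how many clones each line came from, nor that each replicate was its own animal. The spread behind every p-value may therefore not be that between independent animals. The tumours hold host cells beside the melanoma cells, and in bulk tissue fewer cells of a type and less RNA per cell cannot be told apart.

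The mitochondrial genome is a small circle of DNA with almost no space between its genes. Both strands are transcribed as long polycistronic RNAs by the polymerase Polrmt, and excision of the tRNAs that punctuate them releases the mRNAs and rRNAs. The heavy strand transcript carries both rRNAs and all but 1 of the mRNAs, and the light strand transcript carries Nd6 and a group of tRNAs. The mRNAs encode core subunits of respiratory complexes I, III, IV and V, which assemble with subunits made from nuclear genes, and complex II is wholly nuclear. Pieces of mitochondrial DNA also sit in the nuclear chromosomes, and reads from the mitochondrial RNA can match those pieces.

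Library totals ran from 15322163 to 17342554 counts, and 14193 genes passed the low-count filter and were tested. All 7 melanoma and melanocyte markers were above 0 in every library, at a summed 20133 to 26707 CPM (counts scaled to a common library total). Fbxo38 differed from control by a log2 fold change of -0.92 with hairpin 2 (SE 0.29, edgeR unadjusted p = 0.00964, adjusted p = 0.254). In the libraries labelled hairpin 1 it differed by -0.10 (SE 0.28, edgeR adjusted p = 0.9999), so a lower level was not detectable there. Earlier work on these data had set apart replicate 1 labelled hairpin 1 and replicate 2 of hairpin 2. Summed fibroblast markers reached 3190 CPM in the first and 181 to 1387 CPM elsewhere, and globin transcripts took 2.04% of the counts in the second and 0.0429% to 0.481% elsewhere.

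Because several mitochondrial genes have near-identical nuclear copies, the sequences below show what a read can and cannot tell apart. They are from the GENCODE M21 transcripts of the mouse build GRCm38, 5′ to 3′. Capitals mark bases that differ from the mitochondrial line of the same set. The first 90 bases of mt-Co2 were identical in Gm28661 on chromosome 1 and differed at 2 bases in Gm13341 on chromosome 2.
mt-Co2: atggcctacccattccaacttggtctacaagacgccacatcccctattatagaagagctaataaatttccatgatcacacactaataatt
Gm28661: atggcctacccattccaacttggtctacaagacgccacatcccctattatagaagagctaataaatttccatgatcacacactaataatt
Gm13341: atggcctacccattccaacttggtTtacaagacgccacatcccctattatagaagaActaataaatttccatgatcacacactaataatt

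A stretch of 90 bases in the last part of mt-Co1 was identical in Gm29216 on chromosome 1, differed at 3 bases in Gm13340 on chromosome 2 and at 8 in Gm11512 on chromosome 11.
mt-Co1: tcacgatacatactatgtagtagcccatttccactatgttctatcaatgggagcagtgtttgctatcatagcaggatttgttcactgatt
Gm29216: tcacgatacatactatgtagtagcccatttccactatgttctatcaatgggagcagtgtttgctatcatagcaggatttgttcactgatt
Gm13340: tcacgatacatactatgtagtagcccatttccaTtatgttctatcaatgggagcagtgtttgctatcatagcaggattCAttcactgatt
Gm11512: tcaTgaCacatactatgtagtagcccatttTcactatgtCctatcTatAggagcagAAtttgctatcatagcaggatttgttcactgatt

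A stretch of 90 bases in mt-Cytb differed at 8 bases in Gm11410 on chromosome 4, its only aligned copy among the annotated transcripts.
mt-Cytb: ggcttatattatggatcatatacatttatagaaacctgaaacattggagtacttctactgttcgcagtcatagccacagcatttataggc
Gm11410: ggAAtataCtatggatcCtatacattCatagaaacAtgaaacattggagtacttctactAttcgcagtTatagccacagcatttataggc

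Counts on the nuclear copies differed between 3 classes of identity with the mitochondrial gene, without following identity within them. The 7 pseudogenes at 99.7% identity or more held 45 to 2742 counts in each library. The 3 pseudogenes on chromosome 2, at 95.9% to 97.6%, held 0 to 312 counts, with Gm13340 at 973 over all libraries against 766 for Gm10222 of the first class. Gm13339 on chromosome 2, at 96.7%, held 0 to 5 counts in a library. The 7 alignments at 90.7% to 95.2% held 0 to 2 counts in a library, with 4 of their rows at 0 throughout and 1 not listed in the files. Gm11410 was among those at 0, while mt-Cytb held 74640 to 201990 counts. All 7 near-identical pseudogenes lie in 1 run on the minus strand of GRCm38 chromosome 1, from 24611535 to 24616197, in the same gene order as the mitochondrial genome from the end of mt-Co1 to mt-Nd4. Atp8 has no annotated gene in that run, where 233 bases separate Gm28661 and Gm10925.

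The mitochondrial mRNA rows differed over more than 3 orders of size on the CPM per kb scale, which divides CPM by transcript length. The scale makes no allowance for bases that a row shares with nuclear copies or neighbouring genes. The order below is therefore one of counted rows and not of RNA levels. mt-Co1, the catalytic core subunit of complex IV, stood highest at 12101 ± 5013 CPM per kb (SD, n = 9 libraries). mt-Cytb, the cytochrome b of complex III, followed at 6962 ± 2229 CPM per kb and lay below mt-Co1 in 9 of 9 libraries. The complex I subunits mt-Nd1, mt-Nd4, mt-Nd2 and mt-Nd5 came next at means of 2752, 1949, 1549 and 723 CPM per kb, and each lay above the next in 9 of 9 libraries. mt-Nd6, the light strand mRNA, averaged 494 CPM per kb and lay above mt-Rnr2 in 8 of 9 libraries.

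Below these 7 rows the order was less even. mt-Rnr2 and mt-Rnr1, the large and small ribosomal RNAs, averaged 271 and 213 CPM per kb, but mt-Rnr2 was the higher per kb in only 3 of 9 libraries, so this order rests on a few libraries. mt-Co2, which encodes the complex IV subunit that takes electrons from cytochrome c, averaged 158 CPM per kb. mt-Atp6, a membrane subunit of the ATP synthase (complex V), averaged 150 CPM per kb and lay below mt-Co2 in 6 of 9 libraries. These neighbours therefore did not differ beyond their spread. mt-Co3, another complex IV core subunit, averaged 65.7 CPM per kb and mt-Nd4l, a small complex I subunit, 20.5 CPM per kb. mt-Atp8, a small ATP synthase subunit, and mt-Nd3 of complex I closed the mRNA order at 4.12 and 3.05 CPM per kb, with mt-Atp8 above mt-Nd3 in 4 of 9 libraries.

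**Figure D1:**
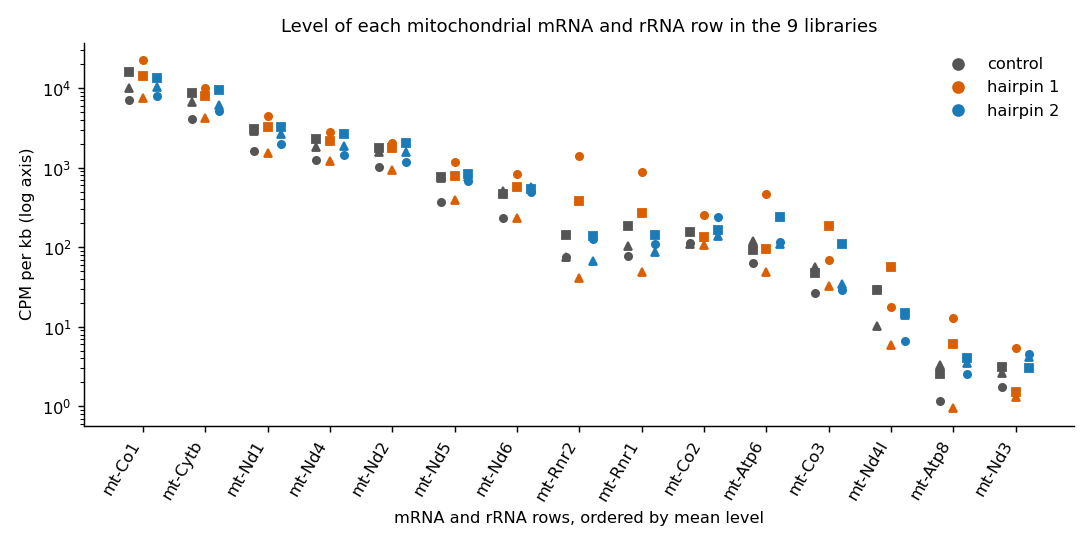
Level of the 13 mRNA and 2 rRNA rows in CPM per kb on a log axis, ordered by their mean; each point is 1 library, coloured by group, with circles, squares and triangles for replicates 1, 2 and 3. The means run from 12101 CPM per kb for mt-Co1 to 3.05 for mt-Nd3, and the points of the 3 groups overlap in every row.

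The 5 mRNA rows with a near-complete nuclear twin were all among the low ones. For mt-Co2, mt-Atp6, mt-Co3, mt-Nd3 and mt-Nd4l, 97.6% to 99.9% of their 100-base windows stood letter for letter in an annotated nuclear transcript. These rows stood at 3.05 to 158 CPM per kb. The corresponding share was 60.8% for mt-Nd4, 30.8% for mt-Co1, 3.19% for mt-Nd2 and 0% for mt-Nd1, mt-Cytb, mt-Nd5, mt-Nd6 and mt-Atp8. Of those 8 rows, 7 stood at 494 CPM per kb or more, and mt-Atp8 did not. Only annotated transcripts were searched, so a copy of mt-Atp8 in the 233 unannotated bases between Gm28661 and Gm10925 would be missed. The 0% of mt-Atp8 therefore does not show that it lacks a nuclear twin. No source used here gives the read length or the treatment of reads that match several places, and the part of such reads in these levels was not tested.

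For 4 of the 7 pairs the twin held 33.5% to 46.5% of the counts of the pair over all libraries. Gm28661 held 699 to 2742 counts and mt-Co2 1123 to 3049, so that the twin's share was 44.8% (25.1% to 62.4% by library). The share was 44.3% for mt-Co3 with Gm28437 (20.96% to 68.1%) and 33.5% for mt-Atp6 with Gm10925 (22.4% to 55.8%). It was 46.5% for mt-Nd4l with Gm10222 (23.4% to 65.5%), where the twin was the higher in 6 of 9 libraries. For mt-Nd3 it was 93.8%, and Gm28438, at 107 to 547 counts, exceeded mt-Nd3, at 7 to 33, in 9 of 9 libraries. For the long genes with partial twins it was small, at 0.487% for mt-Nd4 with Gm28439 and 0.0765% for mt-Co1 with Gm29216. With the twins' counts added, mt-Co2 came to 285 CPM per kb and mt-Nd3 to 49.6, both still below mt-Nd6. Gm13340, the longer chromosome 2 copy of mt-Co1, held 41 to 312 counts and Gm13341, that of mt-Co2, 3 to 24.

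**Figure D2:**
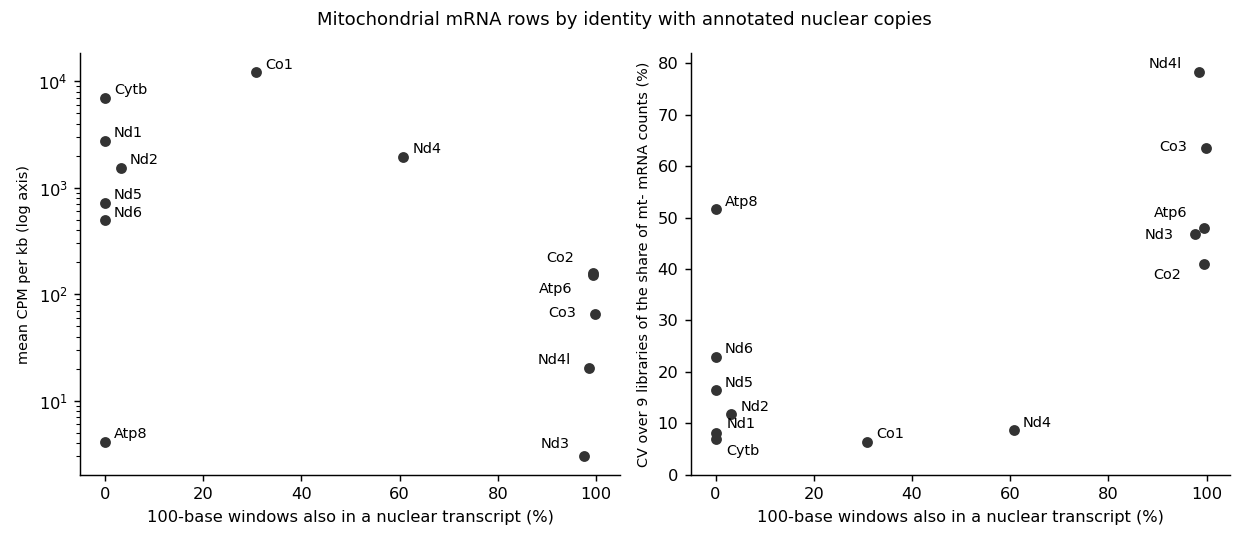
The 13 mitochondrial mRNA rows by the percentage of their 100-base windows that also occur in an annotated nuclear transcript, against their mean CPM per kb on a log axis (left) and the coefficient of variation over 9 libraries of their share of mitochondrial mRNA counts (right). The 5 rows at 97.6% or more lie at 158 CPM per kb or less and vary by 40.9% to 78.3%. mt-Atp8, with no window in an annotated nuclear transcript, also lies low and varies by 51.6%. Unannotated nuclear sequence was not searched.

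The low rows also varied most within the mitochondrial mRNA pool. The coefficient of variation over 9 libraries of a row's share of mitochondrial mRNA counts was 6.41% for mt-Co1, 7.01% for mt-Cytb, 8.13% for mt-Nd1 and 8.63% for mt-Nd4. It was 11.8% for mt-Nd2, 16.4% for mt-Nd5 and 22.9% for mt-Nd6. For the 5 rows with near-complete twins it ran from 40.9% for mt-Co2 to 78.3% for mt-Nd4l, and it was 51.6% for mt-Atp8. Counting error bears on mt-Nd3 and mt-Atp8, which held as few as 7 and 3 counts in a library.

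mt-Atp8 shares its last 43 bases with the start of mt-Atp6, and both are read from 1 bicistronic mRNA. Its sequence is shown because a read in that overlap can be given to either gene; the capitals here mark the bases shared with mt-Atp6.
mt-Atp8: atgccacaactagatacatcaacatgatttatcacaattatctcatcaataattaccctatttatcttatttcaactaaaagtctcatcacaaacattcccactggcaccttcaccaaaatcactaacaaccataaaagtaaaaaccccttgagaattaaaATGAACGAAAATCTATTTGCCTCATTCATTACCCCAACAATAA

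In the controls mt-Atp8 held 4, 8 and 11 counts, against 46, 19 and 3 under the hairpin 1 label and 8, 14 and 12 with hairpin 2. mt-Atp6 held 711, 984 and 1362 in the controls, 5489, 987 and 517 in those labelled hairpin 1, and 1217, 2803 and 1248 with hairpin 2. Both genes were highest in replicate 1 labelled hairpin 1, and the groups overlapped for both. The log2 fold changes of mt-Atp8 from control were 1.56 (SE 0.79) in the libraries labelled hairpin 1 and 0.54 (SE 0.81) with hairpin 2, and those of mt-Atp6 were 1.18 (SE 0.83) and 0.77 (SE 0.82); edgeR adjusted p was 0.9999 for both genes in the first comparison and 0.791 and 0.703 in the second. Other mRNA neighbours share fewer bases, 14 between mt-Nd5 and mt-Nd6, which lie on opposite strands, and 7 between mt-Nd4l and mt-Nd4. No source used here says whether counting used strand, so counts in the shared bases, and counts of a light strand gene and of the heavy strand RNA that runs through it, cannot be told apart.

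Across the study's groups, the mitochondrial genes together took 2.12% to 6.29% of all counts. The share was 2.12%, 4.47% and 3.21% in the 3 controls, 6.29%, 4.19% and 2.15% in the libraries labelled hairpin 1, and 2.55%, 4.31% and 3.19% with hairpin 2. The highest value was in replicate 1 labelled hairpin 1 and the second lowest in replicate 3 of the same group, so that all groups overlapped. Means were 3.26% ± 1.18 for control, 4.21% ± 2.07 for the libraries labelled hairpin 1 and 3.35% ± 0.893 for hairpin 2 (SD, n = 3 each).

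Neither hairpin group was distinguishable from control by this share. Exact two-sided permutation tests gave p = 0.6 for the libraries labelled hairpin 1 against control (difference 0.948 percentage points) and p = 1 for hairpin 2 against control (0.0867 points). Hairpin 2 against the libraries labelled hairpin 1 gave an exact permutation p of 0.7 (-0.861 points). The smallest p that 3 against 3 libraries allow is 0.1, so this test could not pass 0.05. Each of the 3 differences changed sign when a single library was left out. Without replicate 1 labelled hairpin 1 the differences from control and from hairpin 2 were -0.0933 and 0.18 points, and without replicate 2 of hairpin 2 or replicate 1 of control the difference of hairpin 2 from control was -0.395 or -0.487 points.

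**Figure D3:**
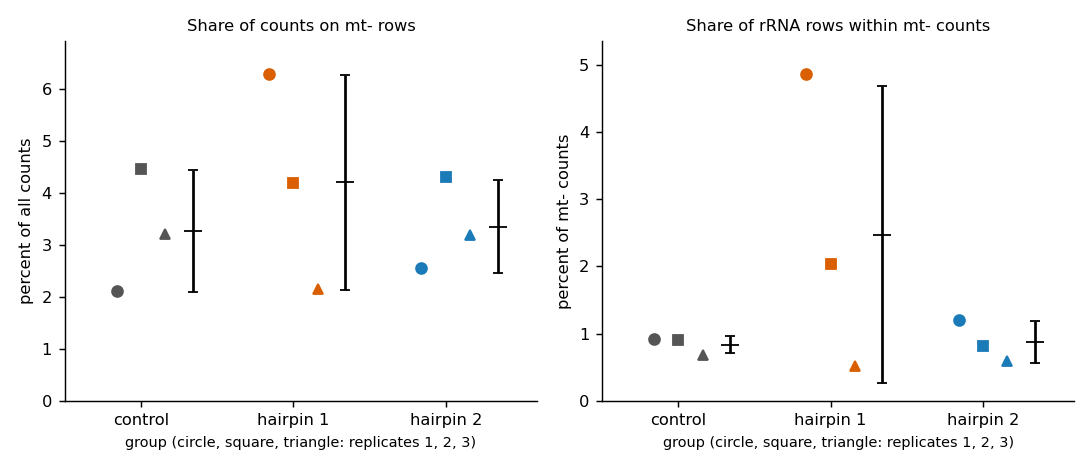
Percentage of all counts on mitochondrial genes (left) and percentage of those counts on the 2 rRNA genes (right); each point is 1 library, and the bars are the mean ± SD of 3 libraries. The mitochondrial share overlaps between all groups at 2.12% to 6.29%, and the rRNA share reaches 4.87% in replicate 1 labelled hairpin 1.

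Gene by gene, 23 of the 37 rows passed the low-count filter: all 13 mRNAs, both rRNAs and 8 tRNAs. None of the 23 was called in any comparison at an edgeR adjusted p under 0.05, where 0% of all tested genes were called in each of the 3 comparisons. At an unadjusted edgeR p under 0.05, 1 of 23 mitochondrial rows passed for the libraries labelled hairpin 1 against control, beside 3.17% of all genes. For hairpin 2 against control 0 of 23 passed beside 14.4% of all genes, and for hairpin 2 against the libraries labelled hairpin 1, 0 of 23 beside 11.7%. With DESeq2 0 mitochondrial rows were called in each comparison, beside 0, 303 and 89 genes in all (0%, 2.13% and 0.627%). For the comparisons with hairpin 2 DESeq2 gave an adjusted p for only 13 of the 23 rows.

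Groups without overlap were also missing among the mitochondrial rows. In the comparison of the libraries labelled hairpin 1 with control, 4.09% of all tested genes were higher in every library and 4.3% lower, against 0 of 23 mitochondrial rows in each direction. For hairpin 2 against control these shares were 10.6% and 10.2% of all genes and again 0 of 23. For hairpin 2 against the libraries labelled hairpin 1 they were 8.31% and 7.67%, and 0 of 23.

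None of the 13 mRNAs had a 95% interval of its fold change that excluded 0. Against control, their log2 fold changes ran from 0.15 to 1.56 in the libraries labelled hairpin 1 (median 0.36, 13 of 13 above 0) and from -0.94 to 0.77 with hairpin 2 (median 0.28, 11 of 13 above 0). Between the hairpins they ran from -1.20 to 0.45 (median -0.13, 3 of 13 above 0). Medians over all tested genes were 0.01, 0.01 and 0.00 in these comparisons. The mRNA rows share their libraries and vary together, and the comparisons with control share the control libraries, so these counts of signs are not independent. Standard errors of the mRNA rows were 0.34 to 0.83, and leaving out replicate 1 labelled hairpin 1 moved the median of that group's comparison from 0.36 to -0.07. Leaving out replicate 2 of hairpin 2 moved the median of hairpin 2 against control from 0.28 to -0.08.

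**Figure D4:**
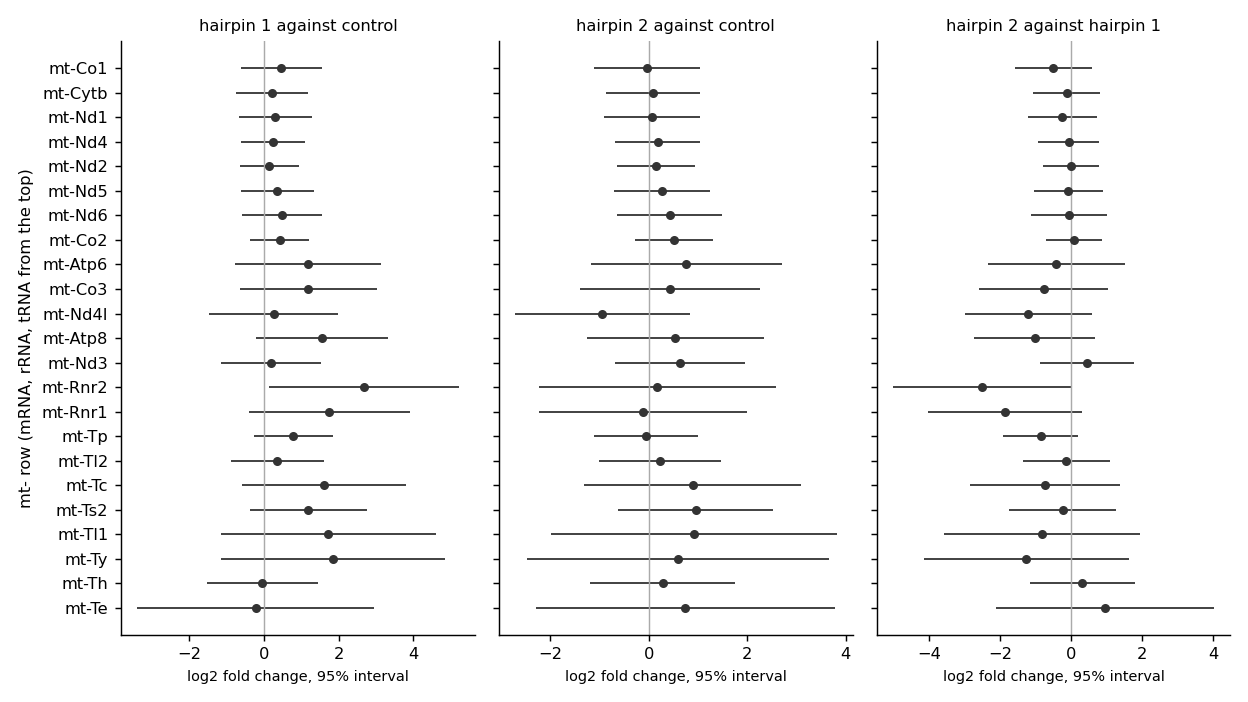
Log2 fold change of the 23 tested mitochondrial rows in 3 comparisons, from edgeR's quasi-likelihood fit; points are estimates and lines 95% intervals. The interval excludes 0 only for mt-Rnr2 in the libraries labelled hairpin 1 against control (0.13 to 5.22), which did not pass after adjustment.

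Among the complex IV subunits, mt-Co1 (ENSMUSG00000064351.1, plus strand, bases 5328 to 6872 of the mitochondrial genome in GENCODE M21) was the largest single source of counts. It held 182430, 376241 and 253854 counts in the controls, 603770, 338343 and 177452 in the libraries labelled hairpin 1, and 187788, 357652 and 266300 with hairpin 2. Replicate 1 labelled hairpin 1 was the highest and replicate 3 of that group the lowest by raw count, although by CPM the lowest was replicate 1 of control. Its log2 fold change was 0.46 in the libraries labelled hairpin 1 (SE 0.46, 95% interval -0.62 to 1.54, edgeR adjusted p = 0.9999). With hairpin 2 it was -0.04 (SE 0.46, 95% interval -1.11 to 1.04, edgeR adjusted p = 0.98). A change within these intervals was not detectable with 3 libraries a group.

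mt-Co2 held 1291, 1653 and 1223 counts in the controls, 3049, 1401 and 1123 in the libraries labelled hairpin 1, and 2514, 1905 and 1601 with hairpin 2. The hairpin 2 values lay mostly above the controls, with an overlap of 1 library at 1601 against 1653. The log2 fold change of mt-Co2 with hairpin 2 was 0.52 (SE 0.34, edgeR adjusted p = 0.515), the lowest adjusted p of the mRNA rows in that comparison. mt-Co3 held 345, 571 and 732 counts in the controls and 344, 1454 and 459 with hairpin 2. In the libraries labelled hairpin 1 mt-Co3 held 944, 2248 and 390, and it was 1 of 2 mRNA rows whose CPM was highest in replicate 2 of that group, the other being mt-Nd4l. The log2 fold changes of mt-Co3 and mt-Co2 in the libraries labelled hairpin 1 were 1.19 (SE 0.78) and 0.42 (SE 0.34), and that of mt-Co3 with hairpin 2 was 0.43 (SE 0.77).

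mt-Cytb, the complex III member, held 77492, 154834 and 127236 counts in the controls, 201990, 138712 and 74640 in the libraries labelled hairpin 1, and 91698, 182585 and 117926 with hairpin 2. All 3 groups overlapped, and the log2 fold changes from control were 0.22 (SE 0.41) and 0.09 (SE 0.41), with edgeR adjusted p of 0.9999 and 0.936. mt-Cytb and mt-Co1 together made up most of the mitochondrial mRNA counts in every library, at 19.5% to 25.0% and 48.4% to 58.2%.

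Complex I has the largest set of mitochondrial subunits, 7 in all. mt-Nd1, whose product lies in the membrane arm beside the quinone site, held 25972, 45756 and 45832 counts in the controls, 73141, 47939 and 22838 in the libraries labelled hairpin 1, and 29216, 53652 and 42205 with hairpin 2. mt-Nd4, a proton-pumping subunit, held 28932, 48406 and 40919, then 67041, 45967 and 25743, then 30775, 62394 and 43653 in the same order of groups. mt-Nd2, another proton-pumping subunit, held 17638, 28569 and 26907, then 36698, 27893 and 15120, then 18974, 36071 and 27709. In each of these 3 genes the libraries labelled hairpin 1 held both the highest and the lowest value, so they enclosed the other groups. The log2 fold changes from control were 0.31, 0.25 and 0.15 in the libraries labelled hairpin 1 and 0.07, 0.18 and 0.15 with hairpin 2, each smaller than its SE of 0.35 to 0.42.

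mt-Nd5, also a pumping subunit, held 11142, 21557 and 22505 counts in the controls, 37460, 21726 and 11155 in the libraries labelled hairpin 1, and 19030, 25656 and 23267 with hairpin 2. Its log2 fold changes from control were 0.36 and 0.28 (SE 0.42 each). mt-Nd3 held 10, 17 and 15, then 33, 8 and 7, then 24, 18 and 24 counts. mt-Nd4l held 147, 132 and 50, then 91, 258 and 27, then 30, 76 and 69 counts. mt-Nd3 with hairpin 2 lay above every control library in raw counts but overlapped in CPM, and mt-Nd4l had 2 controls above all hairpin 2 libraries. The log2 fold change of mt-Nd3 with hairpin 2 was 0.63 (SE 0.60), and -0.050 when the counts of Gm28438 were added to it, an alternative chosen after seeing the data. mt-Nd4l had the most negative mRNA fold change from control with hairpin 2, at a log2 value of -0.94 (SE 0.78, edgeR adjusted p = 0.61), and nearly all of its sequence stands also in Gm10222.

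mt-Nd6 (ENSMUSG00000064368.1, minus strand, bases 13552 to 14070), the membrane subunit of complex I read from the light strand, held 2001, 3737 and 4314 counts in the controls. It held 7414, 4601 and 1878 in the libraries labelled hairpin 1, and 3955, 4784 and 4907 with hairpin 2. Its log2 fold changes from control were 0.48 and 0.42 (SE 0.46 each). As a share of mitochondrial mRNA counts, which library scaling does not touch, it stood at 0.575%, 0.548% and 0.822% in the controls, 0.715%, 0.73% and 0.568% in those labelled hairpin 1, and 1.03%, 0.656% and 0.927% with hairpin 2. The hairpin 2 values were the higher on average but overlapped with both other groups. The difference from control was 0.222 percentage points with hairpin 2 (exact two-sided permutation p = 0.2) and 0.0228 points in the libraries labelled hairpin 1 (exact permutation p = 0.9).

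The mt-Co1 share of mitochondrial mRNA counts did not overlap between the hairpins; this measure was chosen after its values were seen. The shares of mt-Nd2 and mt-Nd4, not tested, did not overlap either, at 3.54% to 4.57% and 6.46% to 7.78% in the libraries labelled hairpin 1 against 4.92% to 5.23% and 7.98% to 8.56% with hairpin 2. The mt-Co1, mt-Nd2 and mt-Nd4 shares were picked from those of 13 mRNA rows, the rest of which overlapped between the hairpins. As a background, the CPM of 8.31% of all tested genes was higher without overlap with hairpin 2, and that of 7.67% lower. The shares of 1 pool move against each other. That of mt-Co1 was 53.6% to 58.2% in the libraries labelled hairpin 1 and 48.7% to 50.3% with hairpin 2, with the controls at 48.4% to 55.1% across both. The difference of -5.82 percentage points between the hairpins had an exact two-sided permutation p of 0.1, the smallest that 3 against 3 libraries allow, and an adjusted p of 0.686 over the 12 exact permutation tests of shares and ratios.

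**Figure D5:**
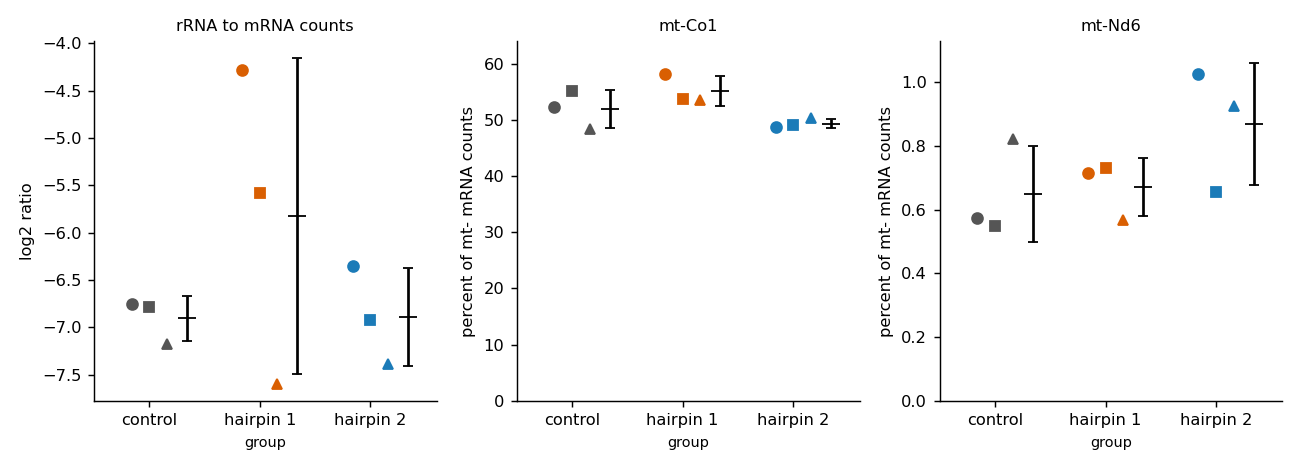
Composition of the mitochondrial counts by library: the log2 ratio of rRNA to mRNA counts (left), the mt-Co1 share (middle) and the mt-Nd6 share (right) of mitochondrial mRNA counts in percent; points are libraries and bars the mean ± SD of 3. The mt-Co1 share lies at 53.6% to 58.2% in the libraries labelled hairpin 1 and at 48.7% to 50.3% with hairpin 2, and the log2 ratio spreads from -7.60 to -4.29 among the libraries labelled hairpin 1.

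The 2 rRNAs, which build the mitochondrial ribosome, were a minor part of the counts, and their log2 fold changes had SEs of 0.90 to 1.08 against 0.34 to 0.83 for the mRNAs. mt-Rnr2 (bases 1094 to 2675, plus strand) held 1978, 3469 and 1985 counts in the controls, 38341, 9215 and 993 in the libraries labelled hairpin 1, and 3097, 3690 and 1783 with hairpin 2. mt-Rnr1 (bases 70 to 1024, plus strand) held 1249, 2742 and 1645, then 14796, 3942 and 712, then 1613, 2347 and 1373. The libraries labelled hairpin 1 again held both extremes. The rRNAs made up 0.686% to 0.918% of mitochondrial counts in the controls, 4.87%, 2.04% and 0.512% in the libraries labelled hairpin 1, and 0.592% to 1.21% with hairpin 2.

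mt-Rnr2 was the only mitochondrial row past an unadjusted edgeR p of 0.05. In the libraries labelled hairpin 1 its log2 fold change from control was 2.67 (SE 1.08, unadjusted p = 0.0418, edgeR adjusted p = 0.9999), with 2 of 3 libraries above every control. That of mt-Rnr1 was 1.75 (SE 0.92, edgeR adjusted p = 0.9999). Without replicate 1 of that group the values were 1.12 for mt-Rnr2 and 0.38 for mt-Rnr1, so that library sets much of both estimates. It is also the library with the highest summed fibroblast markers and the most genes above 0, 20406 against 18267 to 19325 elsewhere, and the part of these in the rRNA counts was not tested. With hairpin 2 the log2 fold changes were 0.18 (SE 1.02) and -0.11 (SE 0.90), with edgeR adjusted p of 0.951 and 0.965.

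The ratio within the mitochondrial counts gave the same picture. The log2 ratio of rRNA to mRNA counts was -6.90 ± 0.24 in the controls, -5.82 ± 1.67 in the libraries labelled hairpin 1 and -6.89 ± 0.52 with hairpin 2 (SD, n = 3 each). Exact two-sided permutation p-values were 0.4 for the libraries labelled hairpin 1 against control and 1 for hairpin 2 against control. mt-Rnr2 stood at 1.21 to 2.59 counts for each count on mt-Rnr1, and the highest ratios were in replicates 1 and 2 labelled hairpin 1. No source used here says whether rRNA was removed or polyadenylated RNA selected.

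The tRNA rows held few counts, 164 to 1222 in a library over all 22 genes. These genes are 59 to 75 bases long, and no source used here gives the read length or library selection. How far their counts follow tRNA levels was not tested. The highest counts were on mt-Tp, the proline tRNA of the light strand, with 126, 205 and 210 in the controls. It held 561, 258 and 114 counts in the libraries labelled hairpin 1, and 183, 164 and 177 with hairpin 2. mt-Tl2, a leucine tRNA, held 64, 89 and 97 counts in the controls, then 213, 80 and 28 in the libraries labelled hairpin 1, then 92, 120 and 85 with hairpin 2. Both were highest in replicate 1 and lowest in replicate 3 of the libraries labelled hairpin 1. In the same order of groups, mt-Tc, for cysteine, held 5, 14 and 19, then 96, 13 and 10, then 43, 23 and 5. The other leucine tRNA, mt-Tl1, held 0, 21 and 14, then 96, 20 and 4, then 46, 12 and 9. The second serine tRNA, mt-Ts2, held 12, 14 and 10, then 52, 25 and 5, then 20, 37 and 14. All 3 were again highest in replicate 1 labelled hairpin 1. The tyrosine tRNA, mt-Ty, held 0, 14 and 8, then 55, 26 and 0, then 20, 10 and 4. The histidine tRNA, mt-Th, held 14, 19 and 8, then 16, 20 and 3, then 13, 25 and 13. The glutamate tRNA, mt-Te, held 2, 6 and 13, then 16, 2 and 0, then 29, 6 and 0. The last 2 were highest in libraries of hairpin 2, and for all 8 the groups overlapped. In 6 of the 8 tested tRNAs the highest CPM was in replicate 1 labelled hairpin 1, and the log2 fold changes from control had SEs of 0.46 to 1.42. The 14 tRNAs below the filter included mt-Tw, at 57 counts in replicate 1 labelled hairpin 1 and 0 to 26 elsewhere, and mt-Tn, at 38 there and 0 to 13 elsewhere. mt-Ta, mt-Tt, mt-Ti, mt-Tr, mt-Ts1, mt-Tg, mt-Tm and mt-Tq held 0 to 8 counts, and mt-Tf, mt-Tv, mt-Td and mt-Tk were at 0 in all 9 libraries.

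Across the whole set, replicate 1 labelled hairpin 1 had the highest CPM in 11 of the 13 mRNAs and both rRNAs. Replicate 3 of the same group had the lowest CPM in 8 of the 13 mRNAs and both rRNAs, and replicate 1 of control in the other 5 mRNAs.

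Nuclear genes that make or use these transcripts were set beside them. Of 36 nuclear complex I subunits, 3 had a log2 fold change above 0 with hairpin 2 against control (median -0.20), while 6 of the 7 mitochondrial subunits did (median 0.18). For complex IV it was 3 of 12 nuclear subunits (median -0.05) and 2 of 3 mitochondrial ones (median 0.43), and for complex V 1 of 14 (median -0.12) and 2 of 2 (median 0.65). For complex III it was 1 of 9 nuclear subunits (median -0.15), with mt-Cytb at 0.09. In the libraries labelled hairpin 1 against control, the values above 0 were 24 of 36 nuclear and 7 of 7 mitochondrial subunits for complex I, 5 of 9 and 1 of 1 for III, 11 of 12 and 3 of 3 for IV, and 10 of 14 and 2 of 2 for V. Between the hairpins they were 2 of 36 and 2 of 7, 0 of 9 and 0 of 1, 1 of 12 and 1 of 3, and 0 of 14 and 0 of 2 in the same order. The complex V list counts Atpif1, an inhibitor of the ATP synthase, with the subunits. Over all 14193 tested genes the values above 0 were 7309 with hairpin 2 against control. They were 7469 in the libraries labelled hairpin 1 against control and 7120 between the hairpins. Replicate 2 of hairpin 2 had the lowest summed CPM of nuclear subunits in each of these complexes. For complex I it held 2591 CPM against 2942 and 3233 in its group, and the controls, at 3121 to 3574, overlapped. The comparisons and list members share libraries, so these counts of signs are not independent. No member of these lists was called by edgeR in any comparison, and the difference between nuclear and mitochondrial subunits was not tested. Of the mitochondrial complex IV rows with hairpin 2 against control, mt-Co1 stood at -0.04. The others, mt-Co2 and mt-Co3, have near-complete nuclear twins, as does mt-Atp6 of complex V. The median of all mitochondrial mRNAs in that comparison was 0.28. It was 0.14 with nuclear copies added, an alternative chosen after seeing the data, and -0.08 without replicate 2 of hairpin 2. For abundant nuclear subunits the log2 values with hairpin 2 against control were 0.00 (SE 0.10) for Ndufs1 of complex I, -0.05 (SE 0.10) for Cox4i1 of complex IV and -0.04 (SE 0.12) for Atp5b of complex V. The same comparison gave an SE of 0.46 for mt-Co1.

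The machinery of mitochondrial transcription and RNA handling had 0 edgeR calls in each comparison. Of 24 genes of mitochondrial DNA transcription and replication, 2 passed an unadjusted edgeR p of 0.05 with hairpin 2 against control, and of 40 genes of mitochondrial RNA processing 5, all 7 with negative fold changes, beside 14.4% of all tested genes. The log2 fold change of Polrmt from control was 0.01 in the libraries labelled hairpin 1 and -0.03 with hairpin 2 (SE 0.17 each). Of the 40 RNA processing genes, 8 had a log2 fold change above 0 with hairpin 2 against control (median -0.12), beside 7309 of 14193 tested genes (median 0.01). Lrpprc, which stabilises mitochondrial mRNAs, was among those 8, at a log2 fold change of 0.06 (SE 0.10). Grsf1, a protein of the mitochondrial RNA granules, stood at -0.10 (SE 0.10). A list of 23 genes held mitochondrial aminoacyl-tRNA synthetases and the related tRNA enzymes Qrsl1, Gatb, Gatc and Mtfmt. Of these 23, 2 passed the unadjusted threshold, and of 19 stress response genes 1, again beside 14.4% of all genes. Of the 12 tested biogenesis regulators 1 passed the unadjusted threshold with hairpin 2 against control, also beside 14.4% of all genes. It was Ppargc1a, a coactivator of mitochondrial biogenesis, at a log2 fold change of 1.32 (SE 0.41, edgeR unadjusted p = 0.012, adjusted p = 0.261). Ppargc1a stood at 186, 252 and 482 CPM with hairpin 2 and 143, 142 and 84.2 CPM in the controls. In the libraries labelled hairpin 1 it stood at 130, 142 and 247 CPM.

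Tissue rich in mitochondria could also enter a subcutaneous sample. The 10 skeletal muscle markers summed to 3.56 to 12.2 CPM in the controls, 3.62 to 13.0 in the libraries labelled hairpin 1 and 3.11 to 18.7 with hairpin 2, with 4 of 10 above 0 in all 9 libraries. The highest value was in replicate 3 of hairpin 2, where the mitochondrial share was 3.19%. The 6 adipocyte markers summed to 13.2 to 32.3 CPM, with 1 of 6 above 0 in all 9 libraries. Ucp1, the marker of brown fat, and Lep were at 0 in every library. The part of such cells in the mitochondrial share was not tested.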

How the data were processed

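The tumour RNA was prepared with TRIzol and sequenced on an Illumina NovaSeq, as the labels' protocols state. Raw counts per gene, in 1 column per library, were deposited by the authors. STAR 2.7.0d, Cufflinks and human builds (GRCh38, hg38) are named in the submitters' processing notes, while the gene symbols are those of mouse; no source used here gives the counter, read length, strandedness, library selection or handling of multiply mapped reads. Sample titles gave the groups, because the genotype labels of the hairpin samples run over several F-box genes. The members and gene lists were chosen with earlier results of these data known. Every mt- row is named. Nuclear genes come from the 3 of highest mean CPM in each list, since edgeR called no list member, and only some of these are given, picked with their values known; Endog, Tbrg4 and Lars2 fall outside this rule and are named with their values known.

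The tests used edgeR 4.0.16 (R 4.3.3): filterByExpr (minimum count 10, minimum total 15), TMM factors, then its quasi-likelihood test with robust dispersions on all 9 libraries, and Benjamini-Hochberg adjustment over 14193 genes and a threshold of 0.05. The SE of a log2 fold change is its size divided by the square root of the F statistic. DESeq2 1.42.0 was an alternative. CPM here divides by the library total, except in the counts of genes without overlap between groups and in the values of Ppargc1a. Those used totals of the filtered genes scaled by the TMM factors. Shares and ratios were compared with exact two-sided permutation tests, p being the part of all splits with an absolute difference in means at least as large; 12 such tests were adjusted together. Nuclear copies were sought only in annotated transcripts (GENCODE M21, GRCm38), by exact windows of 100 bases and by BLAST 2.17.0 alignments of at least 100 bases and 90% identity. Chi-square per degree of freedom over genes was 14.6 to 48.8 for pairs within groups and 7.69 for the most alike pair, control replicate 1 with replicate 3 labelled hairpin 1; all libraries were kept as separate samples. Procedures were tested on simulated data.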

Additional observations from a re-analysis of the deposited data

How the results depend on the processing

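No mitochondrial row was called in any comparison under RLE, total-count or nuclear-only scaling, without the filter, with the non-robust fit, with DESeq2, with only the 2 groups compared, with the replicate block, with nuclear copies added (chosen after seeing the data), without both libraries that stood apart, or without each library in turn. Related nuclear lists had 0 calls with edgeR. With DESeq2 they had 2 for hairpin 2 against control (Endog and Tbrg4) and 1 between the hairpins (Lars2). Over all tested genes DESeq2 called 303 (2.13%) and 89 (0.627%) in these comparisons, against 0 with edgeR. The cause was not tested. Correlations between same-numbered libraries of their deviations from the group means ran from -0.409 to 0.138. Differently numbered pairs were not compared, so whether replicate numbers pair the libraries was not settled. A paired exact permutation, with the replicate block, left the share difference of hairpin 1 against control at 0.948 points (p = 1; the smallest possible is 0.25).

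Leaving out 1 library at a time moved the difference in mitochondrial share from -0.0933 to 1.98 points (hairpin 1 against control), -0.487 to 0.687 (hairpin 2 against control) and -1.89 to 0.18 (hairpin 2 against hairpin 1). Without both libraries that stood apart the differences from control were -0.0933 and -0.395 points. In the same order of comparisons, the log2 rRNA to mRNA ratio moved from 0.31 to 1.97, -0.25 to 0.27 and -1.95 to -0.30, and the mt-Nd6 share from -0.0274 to 0.11, 0.144 to 0.328 and 0.121 to 0.305 points. The mt-Co1 share between the hairpins moved from -6.60 to -4.31 points.

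Single fold changes, none of them called, also changed sign; over the 23 tested rows 14, 13 and 15 did so in at least 1 fit without a library, and the cause was not tested. For hairpin 1 against control the log2 values with 1 library left out ran from -0.36 to 1.64 for mt-Atp6, -0.0092 to 0.83 for mt-Co1, -0.075 to 0.67 for mt-Co2, -0.10 to 0.51 for mt-Cytb, -0.073 to 0.64 for mt-Nd1, -0.11 to 0.42 for mt-Nd2, -0.069 to 0.53 for mt-Nd4 and -0.090 to 0.69 for mt-Nd5. They ran from -0.39 to 0.026 for Fbxo38 and -0.14 to 0.13 for Polrmt. For hairpin 2 against control they ran from -0.28 to 0.32 for mt-Co1, -0.46 to 0.76 for mt-Co3, -0.21 to 0.36 for mt-Cytb, -0.17 to 0.25 for mt-Nd1, -0.080 to 0.35 for mt-Nd2, -0.10 to 0.39 for mt-Nd4, -0.36 to 0.31 for mt-Rnr1 and -0.033 to 0.55 for mt-Rnr2. The nuclear genes ran from -0.18 to 0.025 for Atp5b, -0.16 to 0.0029 for Cox4i1, -0.073 to 0.044 for Ndufs1 and -0.13 to 0.080 for Polrmt.

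Without both libraries that stood apart, hairpin 1 against control gave -0.0083 for mt-Co1, -0.10 for mt-Cytb, -0.068 for mt-Nd4, -0.073 for mt-Nd1, -0.11 for mt-Nd2, -0.089 for mt-Nd5, -0.074 for mt-Co2 and -0.36 for mt-Atp6. Hairpin 2 against control then gave -0.22 for mt-Cytb, -0.11 for mt-Nd4, -0.16 for mt-Nd1, -0.087 for mt-Nd2, -0.043 for mt-Rnr2, -0.47 for mt-Co3, 0.040 for Polrmt and 0.0039 for Atp5b. With nuclear copies added mt-Nd3 was at -0.050. Polrmt in hairpin 1 against control was -0.011 by total counts. Ndufs1 with hairpin 2, at 0.002, was -0.0039 with RLE scaling, -0.0030 by total counts, -0.012 with nuclear-only scaling, -0.0037 without the filter, -0.012 with nuclear copies added, -0.0041 with DESeq2 and -0.0075 with only the 2 groups compared. The spread among 3 libraries a group limits the mRNA values, and counting error limits mt-Nd3, mt-Atp8 and most tRNAs.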
